A study of Mus musculus with 4 samples.

Results

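The 10 genes described here make up the growth hormone (GH) and insulin-like growth factor (IGF) axis of the liver. They are the receptor Ghr, the transcription factor Stat5b, the feedback inhibitors Socs2 and Cish, the hormone Igf1, its partner Igfals and the binding proteins Igfbp1, Igfbp2, Igfbp3 and Igfbp4. They were chosen by gene symbol from the 35275 genes of the read count table. Each symbol names a single row, and all 10 members were among the 12180 genes that reached 1 CPM (reads scaled to a library of 1e+06 counts, with TMM factors) in at least 1 library.

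GH released by the pituitary binds its receptor on hepatocytes and activates JAK2, which phosphorylates STAT5. STAT5 then drives transcription of Igf1, Igfals and the SOCS family inhibitors that end the signal. In the circulation, most IGF-I is held in a ternary complex with IGFBP-3 and the acid-labile subunit encoded by Igfals, whereas IGFBP-1 binds IGF-I in a smaller complex. The liver transcript of IGFBP-1 is known to be repressed by insulin and raised by fasting and glucocorticoids.

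Liver RNA was taken from 16 female mice in 4 groups of 4, and the livers of each group were pooled into 1 library. The vehicle groups were VS, kept sedentary, and VI, given interval training (IT), and the fibril groups were FS, kept sedentary, and FI, given IT. Vehicle mice received PBS by vein, fibril mice received AApoAII amyloid fibrils by vein to induce amyloidosis, and IT was treadmill running over 16 weeks that ended shortly before the livers were collected at 26 weeks of age. All 4 groups, controls included, carried the amyloidogenic Apoa2c allele of apolipoprotein A-II. The sample labels give the strain as AKR/J with an Apoa2c congenic genotype, and the study calls it R1.P1-Apoa2c on a SAMR1 background. With 1 pooled library per group, no comparison between 2 libraries has a replicate error, and the intervals given with their ratios cover counting error only.

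Total counts lay between 23442935 in VS and 28814802 in FS, and 3 counts, the limit that a count of 0 allows, came to between 0.102 and 0.127 CPM. The 8 hepatocyte markers were detected in every library and summed to between 150067 and 174951 CPM. Skeletal muscle markers (13 genes) summed to 78.5 CPM in VS and 10.2 in VI, and to 1.12 in FS and 1.07 in FI, so VS stood apart. In FI, 8 of the 13, among them Acta1, Ckm and Myh4, were at 0, and Tnnc2 was at 0 in all libraries. Kupffer cell markers (7 of 8 in the table) summed to 236 CPM in VS and 287 in VI, and to 356 in FS and 353 in FI. In whole liver RNA, fewer cells of a type and less RNA per cell cannot be told apart.

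Igfbp1 was the member with the widest range. Its level was 154 CPM in VS and 533 in VI, then 585 in FS and 1396 in FI, from 3643, 12977, 17278 and 33781 reads. VS was lowest, VI and FS lay close together, and FI was highest, 9.05-fold above VS. Igfbp1 was 3.45-fold higher in VI than in VS (log2 ratio 1.79, 95% interval 1.73 to 1.84) and 2.39-fold higher in FI than in FS (1.25, 1.23 to 1.28). Against the sedentary and trained vehicle livers, the fibril livers were 3.79-fold (FS versus VS, log2 1.92, 1.87 to 1.98) and 2.62-fold higher (FI versus VI, log2 1.39, 1.36 to 1.42). The ratios of FI to FS and of FI to VI do not use the VS library.

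The gene lies on chromosome 11 of GRCm38 at bases 7197782 to 7202546 of the plus strand, 3539 bases from Igfbp3, which is read from the opposite strand. RefSeq promoters on GRCm38.p6 were given for 9 of the 10 members, 14 windows of 300 bases in all, and Socs2 had none. Igfbp1 was the member whose promoter held the letters CAAAACAA, the core of the insulin response element bound by FOXO factors, on either strand. The match begins at position -108 from the listed start site, whose own base is position 1. The same letters occur in 2.51% of 32851 promoters of this length, and a match in letters does not show binding. The 250 bases before the Igfbp1 start are shown because this is the member that changed with both factors below, with the match in capitals (GRCm38.p6, chr11:7197537-7197786, plus strand).
Igfbp1 upstream: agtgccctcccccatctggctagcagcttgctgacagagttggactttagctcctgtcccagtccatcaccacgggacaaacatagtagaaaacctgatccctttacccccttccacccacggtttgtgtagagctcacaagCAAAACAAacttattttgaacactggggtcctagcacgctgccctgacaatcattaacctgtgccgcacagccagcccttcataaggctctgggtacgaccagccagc

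**Figure D1:**
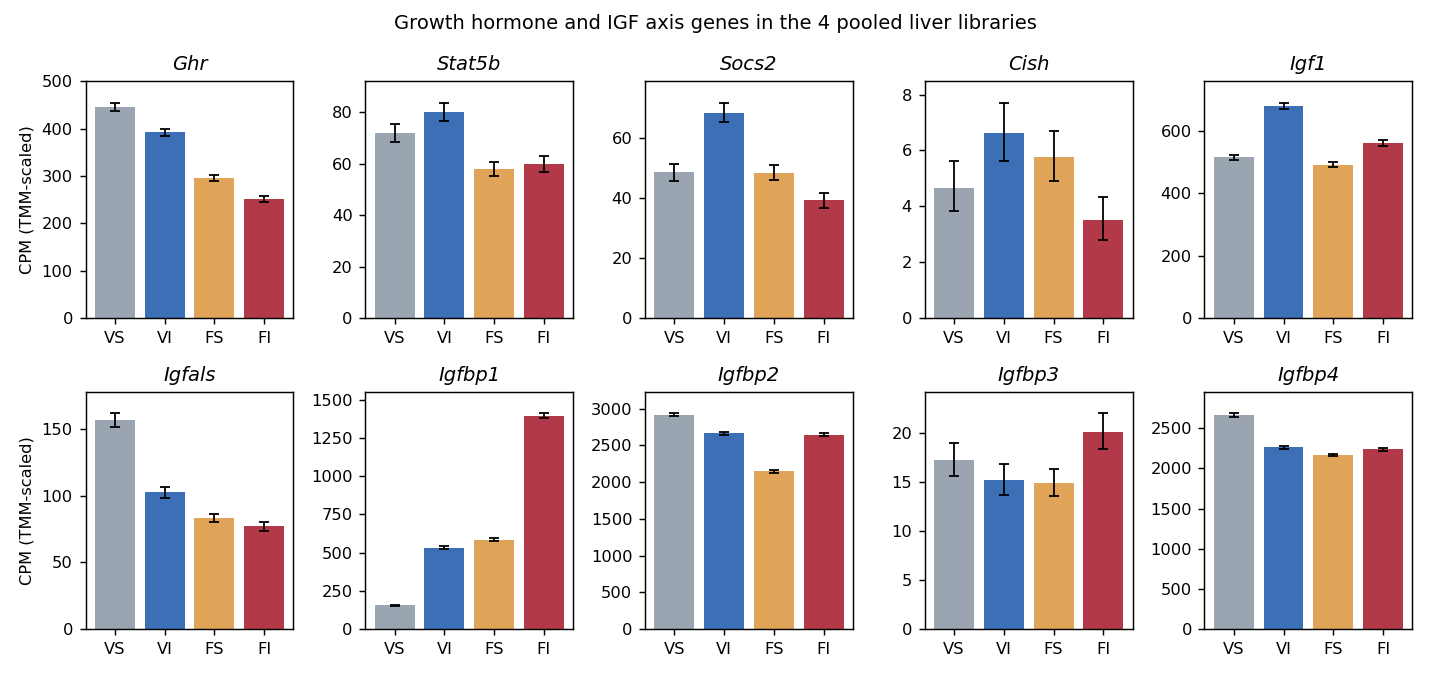
Levels of the 10 members in CPM (vertical axes, each from 0) in the VS, VI, FS and FI libraries. Bars are single pooled libraries and black lines are exact Poisson 95% intervals, which cover counting error only. Igfbp1 runs from 154 CPM in VS to 1396 in FI, Ghr from 446 in VS down to 251 in FI, and Cish stays under 7 CPM.

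Ghr, the receptor, was less abundant in both fibril livers. It was at 446 CPM in VS and 392 in VI, and at 296 in FS and 251 in FI, so both fibril libraries lay below both vehicle libraries. The log2 ratio was -0.59 for FS versus VS (-0.63 to -0.55) and -0.64 for FI versus VI (-0.69 to -0.60). With IT it was -0.19 in vehicle (-0.23 to -0.15) and -0.24 in fibril livers (-0.28 to -0.19). The gene lies on chromosome 15, bases 3317760 to 3583492 of the minus strand.

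Stat5b, the transcription factor that carries the signal to the nucleus, was at 71.9 CPM in VS and 80.2 in VI, and at 58.0 in FS and 59.8 in FI. The fibril libraries were again the lower pair, by log2 ratios of -0.31 without IT (-0.41 to -0.21) and -0.42 with it (-0.52 to -0.32). The ratio of FI to FS, 0.04, had an interval of -0.06 to 0.15 and turned negative with total counts. Stat5b (chromosome 11, bases 100780731 to 100850724, minus strand) lies 8626 bases from its close paralog Stat5a. How reads that match both genes were counted was not found in the sources used here. Stat5a was at 14.0 CPM in VS and 11.3 in VI, and at 9.59 in FS and 9.88 in FI.

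Socs2 and Cish, both inhibitors that STAT5 induces, were highest in VI and lowest in FI. Socs2 lies on chromosome 10, bases 95385362 to 95417180 of the minus strand, and Cish on chromosome 9, bases 107296026 to 107302784 of the plus strand. Socs2 was at 48.7 CPM in VS and 68.6 in VI, and at 48.6 in FS and 39.4 in FI. Cish was at 4.66, 6.61, 5.76 and 3.51 CPM in the same order, from only 110, 161, 170 and 85 reads. With IT, the log2 ratio of Socs2 was 0.50 in vehicle livers (0.39 to 0.61) and -0.30 in fibril livers (-0.42 to -0.19). For Cish it was 0.50 (0.15 to 0.87) and -0.71 (-1.11 to -0.33). Both inhibitors were therefore higher with IT in vehicle livers and lower with IT in fibril livers. FI was lower than VI in both, at -0.80 for Socs2 (-0.92 to -0.69) and -0.91 for Cish (-1.31 to -0.52). FS and VS could not be told apart at this depth: the interval of FS versus VS was -0.11 to 0.11 for Socs2 and -0.05 to 0.67 for Cish.

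The STAT5 motif TTCNNNGAA, which reads the same on both strands, was found in promoters of Cish and Igfals and in 8.30% of all 32851 promoters. The Cish window held 2 matches, at positions 1 and 12 from its listed start, inside the first exon of the GENCODE M21 model. Igfals has 3 listed starts, with 1 match at position -236 from the first and 1 at -58 from the second, and none at the third. These starts are at bases 24877844, 24878231 and 24878747. The counted Igfals model begins at base 24878770, nearest to the third start, and the GENCODE M21 model at base 24865997. The 30 bases around the Cish pair are shown because they hold the 2 matches side by side, in capitals (GRCm38.p6, chr9:107296654-107296683, plus strand).
Cish start region: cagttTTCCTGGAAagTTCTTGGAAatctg

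Igf1, the hormone, was at 514 CPM in VS and 679 in VI, and at 491 in FS and 561 in FI. Both IT libraries lay above both sedentary libraries. The log2 ratio with IT was 0.40 in vehicle (0.37 to 0.44) and 0.19 in fibril livers (0.16 to 0.23). Between fibril and vehicle livers it was -0.07 without IT (-0.10 to -0.03) and -0.28 with IT (-0.31 to -0.24). Igf1, on chromosome 10 at bases 87858265 to 87937042, is overlapped by the antisense gene Igf1os, which had at most 72 reads in a library. Whether counting used strand was not found in the sources used here, so reads of the overlapping pair cannot be told apart.

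Igfals, the acid-labile subunit (chromosome 17, bases 24878770 to 24882008, plus strand), had another order of libraries than Igf1. It was at 157 CPM in VS and 103 in VI, and at 83.3 in FS and 77.0 in FI, so VS was highest and both fibril libraries were lowest. The log2 ratio was -0.91 for FS versus VS (-0.99 to -0.84), -0.61 for VI versus VS (-0.69 to -0.54), -0.41 for FI versus VI (-0.50 to -0.33) and -0.11 for FI versus FS (-0.20 to -0.03). On the scale of reads per length (FPKM), Igfals stood at 1.02 times Igf1 in VS and 0.505 in VI, and at 0.567 in FS and 0.458 in FI. VS was the only library in which these 2 transcripts were near parity. The levels of Ghr and Igfals were highest in the library with the most muscle marker RNA, and the part of that RNA in their values was not tested. Both were also lower in FI than in VI, Ghr at 251 against 392 CPM and Igfals at 77.0 against 103. Muscle marker RNA differed in the same direction, the 13 markers together at 1.07 CPM in FI and 10.2 in VI.

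Igfbp2 (chromosome 1, bases 72824503 to 72852474) and Igfbp4 (chromosome 11, bases 99041244 to 99054392), both on the plus strand, were the abundant binding proteins. Igfbp2 was at 2916 CPM in VS and 2663 in VI, and at 2147 in FS and 2648 in FI. With IT, the log2 ratio was -0.13 in vehicle (-0.15 to -0.12) and 0.30 in fibril livers (0.29 to 0.32), and FS was lowest. Igfbp4 was at 2665, 2266, 2168 and 2241 CPM in the same order, highest in VS, with the other 3 libraries close together. With IT its log2 ratio was -0.23 in vehicle livers (-0.25 to -0.22), and in fibril livers it was 0.05 (0.03 to 0.06) but -0.02 with total counts. FI and VI could not be told apart by counting for either gene, with intervals of -0.02 to 0.01 and -0.03 to 0.00.

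Igfbp3, the carrier of the ternary complex, is made in liver mainly by nonparenchymal cells and lies at bases 7206086 to 7213923 of the minus strand of chromosome 11. It was at 17.2 CPM in VS and 15.1 in VI, and at 14.9 in FS and 20.1 in FI, from 369 to 486 reads. FI was highest, with a log2 ratio of 0.43 to FS (0.24 to 0.62) and 0.41 to VI (0.21 to 0.61). The interval for VI versus VS, -0.39 to 0.02, included no difference. Endothelial markers (8 genes) summed to 233 CPM in VS and 217 in VI, and to 201 in FS and 231 in FI, and stellate cell markers (8 genes) to 249, 212, 226 and 244. VS and FI were the higher libraries for both lists and for Igfbp3. Kupffer cell markers did not share this order: VS was their lowest library (236 CPM) and FS their highest (356 CPM). The part of these cell types in the Igfbp3 values was not tested.

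**Figure D2:**
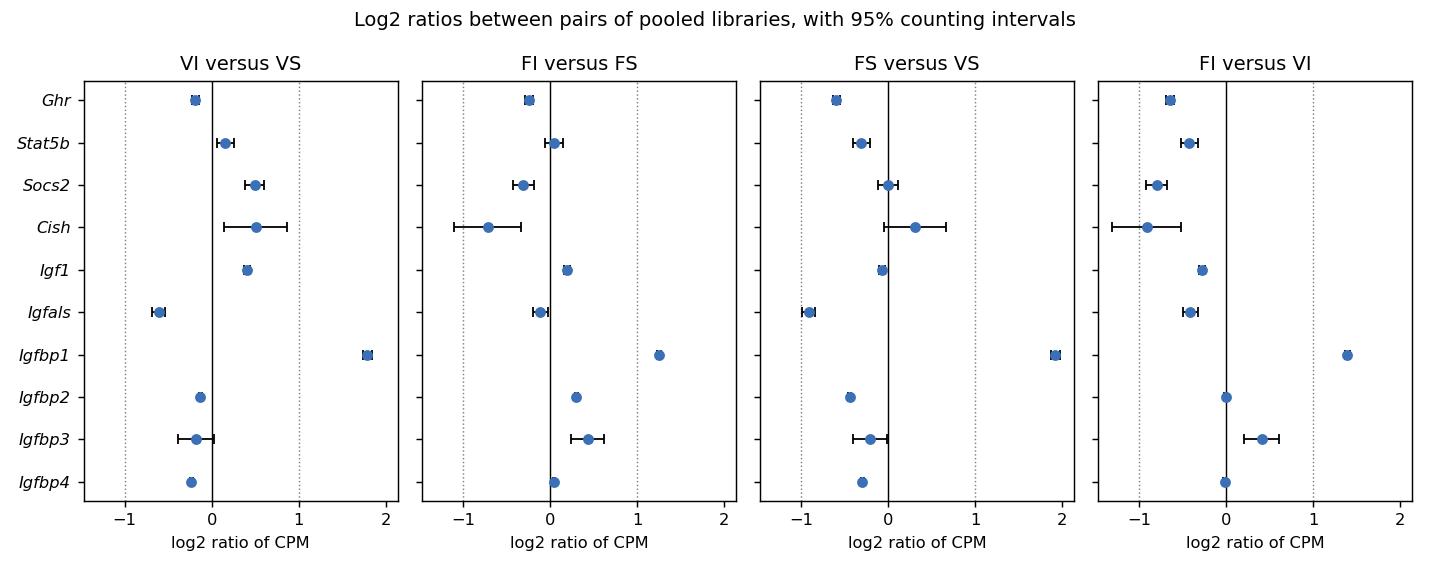
Log2 ratios of CPM (horizontal axes) of the 10 members in the 4 contrasts between libraries, with exact 95% counting intervals. Dotted lines mark 2-fold. Igfbp1, from 1.25 to 1.92, is the member beyond 2-fold in each panel, and Igfals in FS versus VS, -0.91, comes nearest on the lower side.

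Igfbp1 was the only member beyond 2-fold in any contrast, 1 of 10 in each. Among all 12180 genes, the share beyond 2-fold was 3.44% for VI versus VS, 4.26% for FI versus FS, 5.78% for FS versus VS and 4.54% for FI versus VI. The members' count therefore rests on Igfbp1 alone. VI versus VS shares the VS library with FS versus VS, and the other contrasts share FI. FS versus VS and FI versus FS also share FS, and VI versus VS and FI versus VI share VI, on opposite sides of the ratio. No pair of these contrasts with a shared library is independent. For IT, the members had a median log2 ratio of 0.01 in vehicle livers and 0.05 in fibril livers, against 0.00 for all genes in both. For amyloidosis, it was -0.25 without IT and -0.34 with IT, against 0.02 and 0.01 for all genes. In these last 2 contrasts, 8 of the 10 members were lower in the fibril library, against 5843 and 5934 of all 12180 genes. Igfbp1 was among the exceptions in both. Cish was the other exception without IT, and Igfbp3 with IT. Of the lower members, Socs2 in FS versus VS, and Igfbp2 and Igfbp4 in FI versus VI, had intervals that reached 0, and Socs2 was above 0 with total counts.

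Levels of different genes were compared per length, as FPKM. In VS the order was Igfbp2 at 2247 FPKM, Igfbp4 at 701, Ghr at 108, Igfbp1 at 102, Igfals at 74.8, Igf1 at 73.4, Stat5b at 13.9, Socs2 at 11.6, Igfbp3 at 7.15 and Cish at 0.999. In FI it was Igfbp2 at 1976, Igfbp1 at 893, Igfbp4 at 570, Igf1 at 77.6, Ghr at 58.7, Igfals at 35.6, Stat5b at 11.2, Socs2 at 9.05, Igfbp3 at 8.09 and Cish at 0.730. Igfbp1 thus moved from the fourth place to the second, and its rank among all genes by FPKM went from 642 in VS to 219 in VI, 176 in FS and 73 in FI. Neighbours such as Ghr and Igfbp1, or Igfals and Igf1, in VS had no replicate error by which to separate them.

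Summed over Igfbp1 to Igfbp4, the FPKM came to 3057 in VS and 2965 in VI, and to 2663 in FS and 3448 in FI. Igfbp1 supplied 3.33% of that sum in VS and 11.7% in VI, compared with 14.8% in FS and 25.9% in FI. The share of Igfbp2 went from 73.5% in VS to 68.3% in VI, 63.2% in FS and 57.3% in FI. Igfbp2 outnumbered Igfbp1 22.1-fold in VS and 2.21-fold in FI. Relative to Igf1, Igfbp1 stood at 1.39 per length in VS and 3.63 in VI, and at 5.52 in FS and 11.5 in FI, whereas the 4 binding proteins together stood at 41.6, 31.0, 37.4 and 44.4 times Igf1. Igfbp1 had its lowest share in VS and its highest in FI, and Igfbp2 the reverse.

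**Figure D3:**
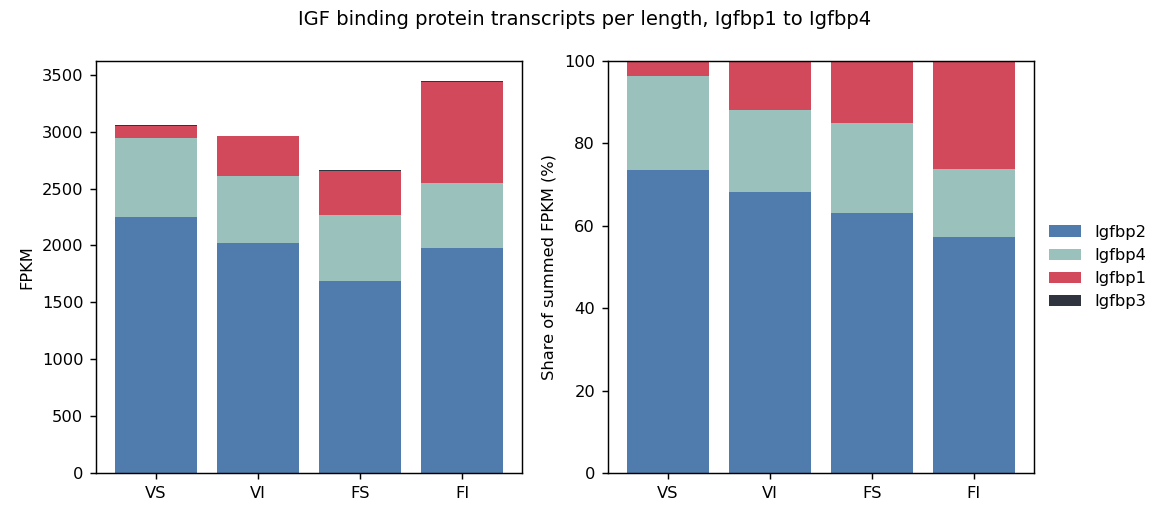
FPKM of Igfbp1 to Igfbp4 (left) and their share of the summed FPKM in percent (right) in the 4 pooled libraries, without replicate error. The Igfbp1 segment grows from 3.33% in VS to 25.9% in FI, and Igfbp3, at 0.210% to 0.236%, is too thin to see.

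An additive model with a term for amyloidosis and a term for IT was fitted over the 4 libraries with edgeR's quasi-likelihood test, which leaves 1 residual degree of freedom, and Benjamini-Hochberg adjustment over 11760 genes. A gene's own error is its departure from additivity, and edgeR moderates that error towards a trend over all genes tested. A gene whose IT effect differs between vehicle and fibril livers therefore has a larger error of its own. Each p-value and SE also rests on the errors of the other genes. The study ran its mice in several series at different times. Which series each pool drew on was not found in the sources used here, so series and group cannot be told apart, and the p-values measure only the spread between these 4 libraries.

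With amyloidosis, 3 of 10 members passed at an adjusted p of 0.05, against 4.97% of all genes (330 higher and 255 lower). Igfbp1 rose by 1.65 on the log2 scale (SE 0.16, adjusted p = 0.0028 by edgeR), Ghr fell by 0.62 (SE 0.12, adjusted p = 0.026) and Igfals fell by 0.67 (SE 0.14, adjusted p = 0.035). Stat5b had a coefficient of -0.37 (SE 0.11, adjusted p = 0.096 by edgeR) and Socs2 of -0.41 (SE 0.19, adjusted p = 0.28). The coefficients of Igf1, Cish, Igfbp2, Igfbp3 and Igfbp4 lay between -0.29 and 0.09 and did not pass. The members' median coefficient was -0.26, against 0.01 for all genes.

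With IT, 1 of 10 members passed, against 1.48% of all genes (90 higher and 84 lower). Igfbp1 rose by 1.52 (SE 0.16, adjusted p = 0.0046 by edgeR's quasi-likelihood test). Igf1, higher in both IT libraries, had a coefficient of 0.30 (SE 0.13) and an adjusted p of 0.34 in edgeR. Igfals had -0.36 (SE 0.14, adjusted p = 0.29 by edgeR) and Ghr -0.21 (SE 0.12, adjusted p = 0.48). The median coefficient of the members was 0.09, against 0.00 for all genes. When each factor was fitted alone, none of the 10 members passed, and Igfbp1 had adjusted p = 0.56 with amyloidosis and 0.91 with IT in edgeR. In those fits the other factor enters the error, and all genes gave 8 calls with amyloidosis and 0 with IT, 1617 and 650 at an unadjusted p under 0.05.

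**Figure D4:**
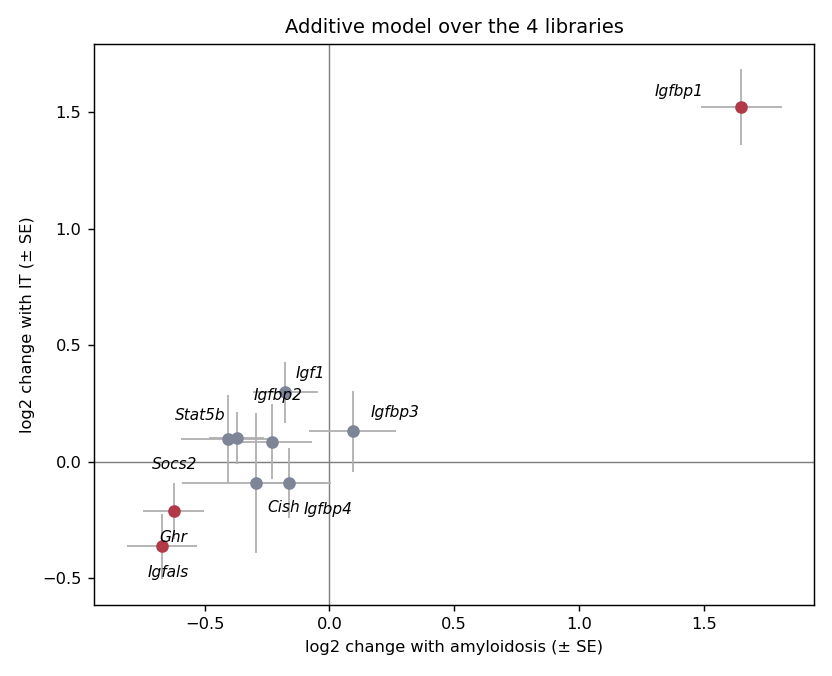
Coefficients of the additive model for the 10 members, amyloidosis on the horizontal and IT on the vertical axis, in log2 units with bars of 1 SE. Red points passed an adjusted p of 0.05 for at least 1 term: Igfbp1 (1.65 and 1.52) stands at the upper right, and Ghr and Igfals at the lower left passed for amyloidosis.

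The combination of both factors was compared with the single factors, without a test across mice. The log2 change of Igfbp1 with IT was smaller in fibril than in vehicle livers by 0.53 (difference -0.53, 95% counting interval -0.59 to -0.47). Its 1396 CPM in FI exceeded the 964 CPM given by adding both single differences to VS, and fell short of the 2021 CPM given by multiplying both single folds. Igfals, at 77.0 CPM in FI, lay above both its sum (29.1) and its product (54.5), with a difference of 0.50 (0.39 to 0.61). Socs2, at 39.4 CPM, lay below the 68.5 CPM that both the sum and the product give. The difference for Ghr, -0.05 (-0.11 to 0.01), and for Stat5b, -0.11 (-0.25 to 0.02), included 0. For Igf1 it was -0.21 (-0.26 to -0.16) and for Igfbp3 0.62 (0.34 to 0.89).

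Of 27 other listed genes of the pathway, 19 reached 1 CPM, and Igf1r and Igf2, the receptor and the fetal ligand, were below it in every library. In FS versus VS 1 of the 19 was beyond 2-fold, against 5.78% of all genes, and in the other contrasts 0, against 3.44% to 4.54%. That gene was Socs3, an inhibitor that STAT3 induces, at 9.53 CPM in VS and 12.2 in VI, and at 27.4 in FS and 15.3 in FI. It was highest in FS, with a log2 ratio of 1.52 to VS (1.31 to 1.74), and its coefficient of 0.93 with amyloidosis did not pass in edgeR (adjusted p = 0.11). The list's median log2 ratio with IT was -0.03 in vehicle and 0.18 in fibril livers, and with amyloidosis -0.13 without and 0.11 with IT.

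In the additive model, 1 of the 19 passed for amyloidosis, against 4.97% of all genes, and it rose. This was Stat3, named after its values were seen, the transcription factor of interleukin-6 signalling, at 134 CPM in VS and 135 in VI, and at 210 in FS and 184 in FI (coefficient 0.54, SE 0.12, adjusted p = 0.040 by edgeR). Stat3 and Stat5b were thus on opposite sides in the fibril libraries, although Stat5b did not pass. With IT, 0 of the 19 passed in edgeR and DESeq2 and 1 in limma-voom, against 1.48%, 1.55% and 2.06% of all genes. With total counts edgeR passed 1 of the 19 for IT, against 2.33% of all genes. Without a filter edgeR passed 2 of 27 for each factor, against 7.62% (amyloidosis) and 3.71% (IT) of all genes. At an unadjusted p under 0.05, edgeR gave 2 of the 19, against 14.7% of all genes. The prolactin receptor Prlr, which shares STAT5 with Ghr and was likewise named afterwards, was at 194 CPM in VS and 158 in VI, and at 178 in FS and 125 in FI. It did not pass for IT (coefficient -0.40, adjusted p = 0.18 by edgeR). Nearest to passing for IT was Irs2, also named afterwards, at 11.1, 16.3, 13.0 and 23.9 CPM in the same order (coefficient 0.73, adjusted p = 0.060 by edgeR).

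In female mice the near-continuous GH pattern keeps a set of liver genes high and another low, both through STAT5b. All 19 listed female-biased genes reached 1 CPM. In VI versus VS, 2 were beyond 2-fold higher and 1 lower, and in FI versus FS 1 and 2. In FS versus VS there were 3 and 4, and in FI versus VI 0 and 1. The shares of all genes beyond 2-fold in either direction were 3.44%, 4.26%, 5.78% and 4.54% in these contrasts. The list had no shared direction: its medians were -0.02, -0.06, -0.19 and -0.24 in these contrasts. Reads of the Cyp2b, Cyp3a and Sult families can match near-identical copies, and how such reads were counted was not found in the sources used here.

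Sult2a1, a hydroxysteroid sulfotransferase, was at 322 CPM in VS and 38.4 in VI, and at 196 in FS and 20.3 in FI. Both IT libraries lay far below both sedentary ones, and Sult2a1 fell by 3.16 on the log2 scale with IT (SE 0.13, adjusted p = 4.5e-05 by edgeR) and was the 1 of 19 female-biased genes to pass for that factor with edgeR, against 1.48% of all genes. DESeq2 and limma-voom each passed 4 of the 19 with IT, against 1.55% and 2.06% of all genes. Without a filter on low counts edgeR passed 8, against 3.71% of all genes. It passed 3 without robust estimation or with total counts, against 1.73% and 2.33%, and 0 with IT fitted alone. Sult2a1 also fell by 0.82 with amyloidosis (SE 0.12, adjusted p = 0.0097 by edgeR).

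With amyloidosis, 2 of the 19 female-biased genes rose and 3 fell in edgeR, against 4.97% of all genes. DESeq2 passed 6 of the 19 and limma-voom 7, against 4% and 6% of all genes. Without a filter on low counts edgeR passed 10, against 7.62% of all genes, and 0 with amyloidosis fitted alone, against 0.068%. The acyl-CoA thioesterase Acot3 was at 183 CPM in VS and 131 in VI, and at 46.6 in FS and 64.3 in FI and fell by 1.51 (SE 0.22, adjusted p = 0.015 by edgeR). The cytochrome P450 Cyp2b13 was at 632, 317, 248 and 193 CPM in the same order and fell by 1.04 (SE 0.17, adjusted p = 0.015 by edgeR). Both were highest in VS. Cyp17a1, a steroid hydroxylase, was at 22.0, 52.4, 60.1 and 78.9 CPM and rose by 1.0 (SE 0.20, adjusted p = 0.042 by edgeR). The other genes that passed were Sult2a1 and Cyp3a41a. Cyp3a41a, named only because it passed, had a coefficient of 0.53 (adjusted p = 0.034 by edgeR). A1bg was at 3.81 CPM in VS and 9.93 in VI, and at 11.8 in FS and 9.22 in FI, lowest in VS, and did not pass (adjusted p = 0.41 by edgeR).

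Of 17 male-biased genes, 13 reached 1 CPM in a library, and Cyp4a12a, Cyp4a12b, Hsd3b5 and Ugt2b38 did not, at no more than 12 reads each. With IT, 1 was beyond 2-fold in vehicle and 2 in fibril livers, and with amyloidosis 2 were without IT and 1 with IT. The shares of all genes in these contrasts were 3.44%, 4.26%, 5.78% and 4.54%. Each male-biased gene beyond 2-fold was below 5 CPM in all libraries, where 2-fold rests on few reads. In the additive model 0 of the 10 tested passed for either factor with edgeR, DESeq2 or limma-voom. With total counts edgeR passed 1 of the 10 for IT, against 2.33% of all genes. Without a filter edgeR passed 1 of 17 for amyloidosis and 2 for IT, against 7.62% and 3.71% of all genes. At an unadjusted p under 0.05, edgeR gave 4 for amyloidosis and 5 for IT, against 21.4% and 14.7% of all genes. The nearest was Bcl6, a repressor that STAT5 lowers, named after its values were seen, at 15.0 CPM in VS and 7.92 in VI, and at 18.8 in FS and 12.4 in FI (IT coefficient -0.75, adjusted p = 0.061 by edgeR).

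**Figure D5:**
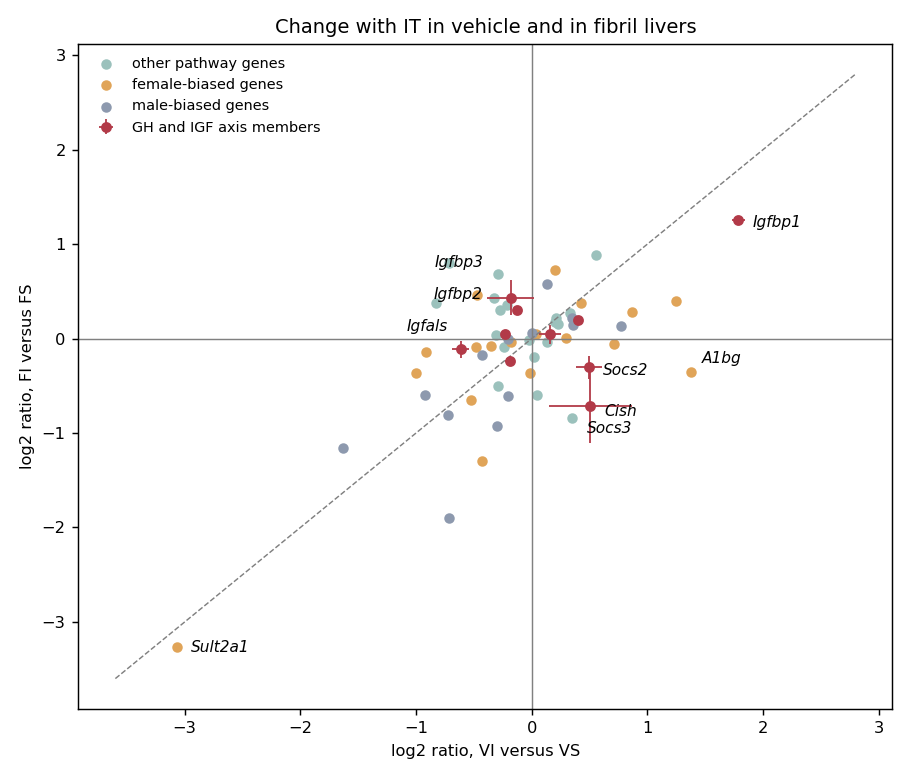
Log2 ratio with IT in vehicle livers (VI versus VS, horizontal) and in fibril livers (FI versus FS, vertical) for the 10 members (red, with 95% counting intervals) and for genes of the 3 lists, each point 1 gene. The dashed line marks equal values. Sult2a1 lies near it at the lower left, Igfbp1 at the upper right lies below it (1.79 and 1.25), and Socs2, Cish, Socs3 and A1bg lie at the lower right, higher with IT in vehicle and lower in fibril livers.

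The genes most like Igfbp1 over the 4 libraries were ranked among 7952 genes with at least 5 CPM in every library, by the Euclidean distance of log2 CPM centred on each gene's mean. The nearest was Cyp2b10, a drug-metabolizing cytochrome P450, at 11.2 CPM in VS and 31.5 in VI, and at 41.2 in FS and 116 in FI (distance 0.353). Got1, the cytosolic aspartate aminotransferase, followed at 86.6, 454, 376 and 946 CPM (0.434). The leptin receptor Lepr was at 13.1, 46.9, 35.6 and 129 CPM (0.475). Tat, a tyrosine aminotransferase, and Lpin1, a phosphatidate phosphatase, came next, both at 0.622. All 5 had VS lowest and FI highest. Cyp2b10, Tat and Lpin1 had FS above VI, as Igfbp1 did, and Got1 and Lepr had VI above FS. For Igf1 the nearest were Noc2l (0.0315), Scarb2 (0.0434), Pi4ka (0.0439), Sat1 (0.0503) and Rfxap (0.0592), each highest in VI and lowest in FS like Igf1. Such distances rest on 4 libraries and many genes lie close to any small range.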

How the data were processed

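Liver RNA of 4 pools, VS, VI, FS and FI, was measured by RNA-seq. The submitters' processing notes name fastp 0.23.2, STAR 2.5, HTSeq 0.6.1 and mm10. The authors deposited read counts per gene without normalization, and FPKM values that they made from these counts. All FPKM values above 0 equalled count over gene length and total count within 0.1%. The sources used here give neither the dispersion the authors used for single libraries nor the strand setting. Genes were joined by Ensembl identifier.

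The analysis used edgeR 4.0.16, DESeq2 1.42.0 and limma 3.58.1 in R 4.3.3, and Python 3.11.15. Library sizes were scaled by TMM, and ratios used a prior of 0.5 counts. Intervals at 95% were exact, Clopper-Pearson for ratios and Poisson for levels, and normal for differences of ratios. With 1 library per group the 4 contrasts have no test. Genes reaching 1 CPM in 2 or more libraries entered the additive model (edgeR quasi-likelihood, robust). The members and gene lists were chosen with earlier results of these data known. Named genes were all members, up to 6 genes per list beyond 2-fold with at least 5 CPM in 1 library, and the 5 genes nearest to Igfbp1 and Igf1. One gene named by this rule is not reported here. Stat5a is given as the paralog of Stat5b, and genes named for a threshold they passed or missed are given with that threshold. Other exceptions are marked where they occur. Promoters came from RefSeq. The alternatives tried were scaling by total counts or DESeq2 size factors, log2 FPKM with 1 or 0.1 added, no filter or 5 CPM, a fold of 1.5, a prior of 5 counts, DESeq2, limma-voom, no robust estimation and each factor alone. Lymphocyte markers summed to between 8.00 and 12.6 CPM and neutrophil markers to between 2.03 and 5.28.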

Additional observations from a re-analysis of the deposited data

Results flagged for a closer look

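For 4 of the 10 members, the log2 change with IT had opposite signs in vehicle and fibril livers. Both counting intervals were on their own side of 0. The change in fibril minus that in vehicle livers was -0.80 for Socs2 and -1.21 for Cish, both higher with IT in vehicle and lower in fibril livers. It was 0.43 for Igfbp2 and 0.28 for Igfbp4, both lower with IT in vehicle livers and higher in fibril livers, although the fibril change of Igfbp4, 0.05, became -0.02 with total counts. Of the kept genes of the 3 other lists (19 pathway, 19 female-biased and 13 male-biased), 6 met the same criterion. The share of all genes that meet this criterion was not counted, and counting intervals are narrow for genes with many reads, such as Igfbp4. These counts therefore cannot be read as particular to the members or the lists. Socs3 (-1.19) and A1bg (-1.73) were higher with IT in vehicle and lower in fibril livers. Acot3 (0.94), Jak2 (0.58), the kinase of the GH receptor, the adaptor Sh2b2 (1.51, from 62 to 110 reads) and Igfbp7 (0.57) were lower with IT in vehicle and higher in fibril livers. With 1 pooled library per group, none of these differences was tested.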

How the results depend on the processing

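Each comparison rests on 1 pooled library per group, so no library could be left out of a group, and mouse to mouse spread is unknown. No paired analysis was possible because each group has 1 library. The count of 1 member beyond 2-fold in each contrast held under every scaling, filter, prior and FPKM setting. At 1.5-fold it was 2 in VI versus VS, 2 in FI versus FS, 3 in FS versus VS and 4 in FI versus VI, with 11.7%, 13.5%, 17.5% and 14% of all genes. In this order of contrasts, the other pathway genes gave 2, 4, 4 and 3 of 27 without a filter and 2, 5, 6 and 1 of 19 at 1.5-fold. Without a filter, the shares of all 19939 genes then counted were 20.2%, 20.3%, 22.2% and 21%. Female-biased genes gave 8, 5, 11 and 6 at 1.5-fold. Male-biased genes gave 5, 6, 5 and 2 at 1.5-fold, and 0 in all 4 contrasts with a pseudocount of 1 on FPKM or a filter of 5 CPM. Without a filter these male-biased genes gave 3 of 17 in each contrast. With a pseudocount of 0.1 they gave 1 in FI versus FS and 0 in FS versus VS and FI versus VI, with a prior of 5 counts 1, 1 and 0 in these contrasts, and with total counts 1 in FS versus VS. All genes without a filter gave between 4035 and 4429 of 19939 beyond 2-fold, against 419 to 704 of 12180. With a pseudocount of 1 on FPKM they gave between 107 and 242 of 12180.

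In the additive model, members passing with amyloidosis numbered 5 without a filter (Socs2 and Stat5b added, adjusted p = 0.024 and 0.044 by edgeR) and 0 with the factor alone, where 3 had an unadjusted p under 0.05. With IT there were 0 with the factor alone by edgeR, 0 at an unadjusted p under 0.05. DESeq2 and limma-voom gave 3 members for amyloidosis and 1 for IT, as did edgeR. Igfals had adjusted p = 0.056 in edgeR with genes of at least 5 CPM, and 0.23 with amyloidosis alone, where Ghr had 0.16. All calls with amyloidosis numbered 585, and 1519 without a filter and 8 with the factor alone. Those with IT numbered 174, against 740 without a filter, 274 with total counts, 82 at 5 CPM and 0 with the factor alone. Total counts shifted the median of all genes by up to -0.07. Of the member log2 ratios recomputed, 166 moved by less than the counting interval and 34 by more. No member coefficient changed sign. Among the ratios, Igfbp4 and Stat5b in FI versus FS and Socs2 in FS versus VS, all within 0.05 of 0, changed sign with total counts and FPKM.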
